A study of Mus musculus with 28 samples.

Results

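Small nuclear RNAs (snRNAs) were examined in RNA that came down with the double-stranded RNA-activated kinase PKR in mouse embryonic fibroblasts. The members were all features whose name carries the snRNA biotype and whose mean raw count over the 24 libraries of datasets A and B was 10 or more, and 179 of 1428 snRNA features met this among 30210 features in all. Of the 1428, 714 had no count in any of the 24 libraries. The features just inside that limit had mean counts of 10, 10.88 and 11.42, and those just outside had 9.833, 9.833 and 9.75. The members were thus chosen by their mean count over these same libraries, so counts and medians over them are descriptions and give no independent support. A mean of 10 counts within every one of the 8 groups was reached by 115 members, within the wild-type mock group of dataset B by 130 and within the mutant palmitate group of dataset B by 179.

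The cells had been reconstituted with wild-type PKR (WT) or with PKR carrying a mutation in each double-stranded RNA-binding motif (RM), and were mock-treated or given 0.1 mM palmitic acid, a saturated fatty acid. The labels do not say whether a reconstituted line is 1 clone, nor what drives the PKR transgene. PKR was immunoprecipitated from lysate and its RNA was extracted and fragmented, and a small RNA kit was used for the libraries. Datasets A and B each held 3 libraries, called biological replicates in the labels, of WT mock, WT palmitate, RM mock and RM palmitate, and dataset C held 1 library of each. Column names in dataset B contain 2hr, which the labels do not explain. There was no input RNA and no control precipitate, so the amount of an snRNA in the cells, the part bound to PKR and background binding cannot be told apart, and neither can fewer cells and less RNA per cell. The labels call the replicates biological but name no separate cultures or days, so p-values measure the spread between these libraries.

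The snRNAs are short, highly structured nuclear RNAs that work as RNA-protein particles (snRNPs). In the major spliceosome, U1 pairs with the 5′ splice site, U2 pairs with the branch point, U5 holds the exon ends, and U6 arrives paired with U4 and helps to form the catalytic centre. In the minor spliceosome, which removes a rare class of introns, U11 and U12 take the parts of U1 and U2. U7 pairs with replication-dependent histone pre-mRNAs and directs the cut at their 3′ end, so it is not spliceosomal. Mammalian genomes hold many copies and pseudogenes of these genes, above all of U6 and U1.

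Families were set from the gene symbol or from sequence identity to a named snRNA, and features with no sequence in the annotation used here went with the family of the same length. This gave 103 U6 features, 33 of U1, 16 of U2, 8 of U5, 3 of U12, 2 of U11, 1 of U7, a pair of features 141 bases long that could not be placed, and 11 unassigned features. A sequence was at hand for 89 of the 179, namely 46 of U6, 13 of U1, 12 of U2, 1 of U5, the 3 of U12, the 2 of U11, U7 and the 11 unassigned. The placement of the other 90, among them 7 of the 8 U5 features, rests on length alone. No member carried a U4, U4atac or U6atac symbol. The named snRNAs used for comparison were of U1, U2, U5, U6, U7, U11 and U12 only. A U4, U4atac or U6atac sequence would thus not have been recognised.

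The sequences below are those of GENCODE M21 transcripts of members that stand for most of the families, so that the RNA behind each value can be seen. Capitals mark a known element of each named snRNA, found by an exact search of the transcript strand and counted from base 1. In U1 this is the stretch that pairs with the 5′ splice site (ACTTACCTG, from base 3) and in U2 the stretch that pairs with the branch point (GTAGTA, from base 33). In U12 and U11 it is the Sm protein site (ATTTTTG from base 75 and ATTTTTTG from base 88), and in U7 part of the stretch that pairs with histone pre-mRNA (CTCTTTT, from base 12). The letters ATTTTTG are not particular to U12, since Rnu2-10 below also holds them, unmarked.
Rnu1b6, U1: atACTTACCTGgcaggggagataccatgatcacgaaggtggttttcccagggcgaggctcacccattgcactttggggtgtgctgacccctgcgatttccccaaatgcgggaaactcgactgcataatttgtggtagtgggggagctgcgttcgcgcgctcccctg
Rnu2-10, U2: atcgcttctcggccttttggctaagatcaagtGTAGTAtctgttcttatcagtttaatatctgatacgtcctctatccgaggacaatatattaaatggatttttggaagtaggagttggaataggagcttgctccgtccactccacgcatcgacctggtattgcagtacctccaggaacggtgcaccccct
Rnu12, U12: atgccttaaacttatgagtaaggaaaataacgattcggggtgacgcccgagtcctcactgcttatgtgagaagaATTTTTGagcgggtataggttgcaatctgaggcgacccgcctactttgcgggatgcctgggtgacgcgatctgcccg
Rnu11, U11: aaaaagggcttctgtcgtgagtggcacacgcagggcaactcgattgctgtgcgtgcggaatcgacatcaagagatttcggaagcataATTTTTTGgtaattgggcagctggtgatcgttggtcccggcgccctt
Rnu7, U7: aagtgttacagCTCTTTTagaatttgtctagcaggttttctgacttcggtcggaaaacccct
Gm25704, a U1 feature without ACTTACCTG: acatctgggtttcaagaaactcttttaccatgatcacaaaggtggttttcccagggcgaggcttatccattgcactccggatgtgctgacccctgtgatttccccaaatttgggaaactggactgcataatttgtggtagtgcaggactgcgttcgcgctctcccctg
Gm23744, unassigned, with the 77 bases it shares with the start of Rnu2-10 in capitals: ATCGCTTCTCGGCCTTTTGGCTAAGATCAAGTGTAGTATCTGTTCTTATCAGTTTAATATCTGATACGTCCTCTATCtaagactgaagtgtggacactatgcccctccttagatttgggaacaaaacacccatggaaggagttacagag

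ACAGAGA, the invariant box of U6 searched in the same way, was in 46 of 46 U6 features with a sequence and in 42.15% of the 1383 snRNA transcripts of the annotation. GTAGTA was in 10 of 12 U2 features (3.69% of all 1383), ACTTACCTG in 7 of 13 U1 features (3.98%), ATTTTTG in 2 of 3 U12 features (3.33%), ATTTTTTG in both U11 features (1.37%) and CTCTTTT in Rnu7 (2.75%). A match or its absence describes these letters only.

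Many members are copies that counting cannot keep apart. Gm25127 is 1 of 17 U6 features with the same 107 bases. Their mean counts lay between 51 and 59.1, and the copies differed by no more than counting noise (chi-square per degree of freedom 1.003). Rnu2-10, Gm24950, Gm23849 and Gm23971 also share 1 sequence of 191 bases and lie between 101488680 and 101519742 on chromosome 11 (mm9), but their counts differed far beyond counting noise (chi-square per degree of freedom 80.4). Gm23971 had 40.5% to 52.9% of the count of Gm24950 in the 12 libraries of dataset A, 72.7% to 85.5% in the 12 of dataset B and 100.1% to 101% in the 4 of dataset C. Rnu2-10 followed the same order, with 74.7% to 85.8%, 89.2% to 93.7% and 99.2% to 101.5%. For these 2 copies the ranges of the 3 datasets did not overlap, whereas Gm23849 stood at 88.9% to 105.2%, 96.8% to 101.7% and 99.3% to 101.1%, which overlap. How reads with several matches were placed is not given in the sources used here, so each count of a multi-copy member is uncertain and family sums are given beside it. In addition, 65 members overlap another feature, 34 of them on the same strand.

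**Figure D1:**
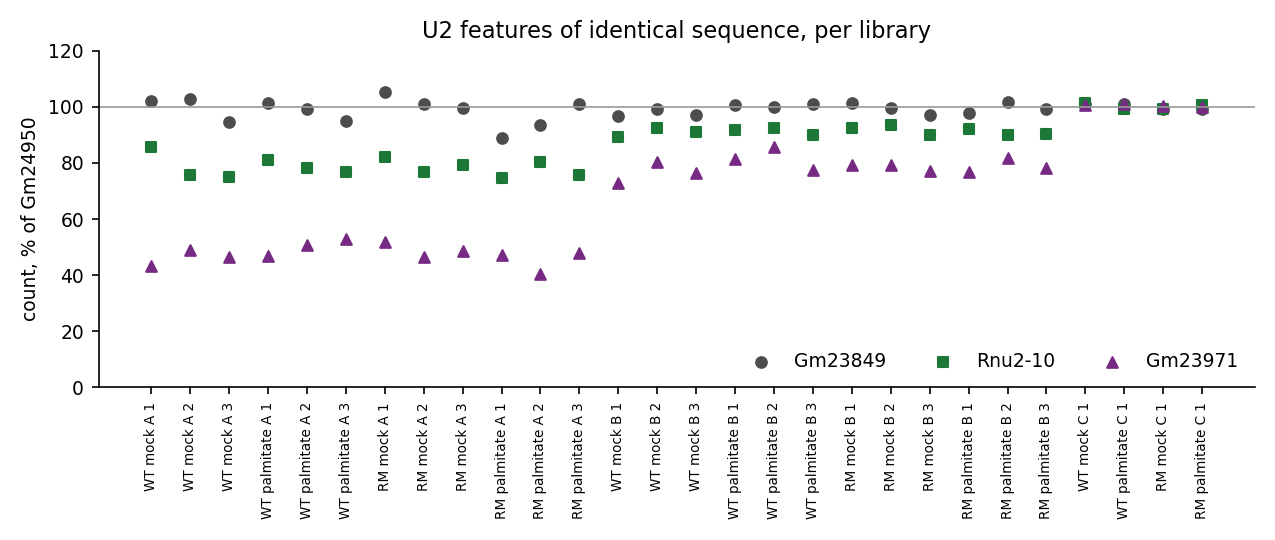
Counts of Gm23849 (circles), Rnu2-10 (squares) and Gm23971 (triangles) as a percentage of the count of Gm24950, per library of datasets A, B and C. Gm23971 sits at 40.5% to 52.9% in dataset A, 72.7% to 85.5% in B and about 100% in C.

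Total counts per library ran from 3249858 to 8036622 in dataset A, except for RM palmitate replicate 2, which held 254762, and from 2204502 to 7122087 in dataset B. The 3 shallowest libraries of B were those of RM palmitate, and replicates 2 and 3 of that group stood apart with TMM scaling factors of 0.82 and 0.637 against 1.001 to 1.136 in the other 10. Values that rest on these libraries are given with and without them. Of the 12 libraries of B, RM palmitate replicates 2 and 3 also had the highest snRNA shares. The 9 fibroblast markers summed to between 8029 and 22470 CPM (counts scaled to a common library total with the TMM factors) in every library of A and B, while the 7 macrophage and lymphocyte markers summed to at most 5.83, with Adgre1 and Cd3e at 0 throughout. The 5 epithelial markers reached at most 13.4 CPM and the 4 endothelial markers at most 8.44.

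In dataset B the snRNAs took a share of all counts that was lowest in WT mock and highest in RM palmitate. Replicates 1, 2 and 3 held 0.294%, 0.627% and 0.677% in WT mock, 1.20%, 1.56% and 1.94% in WT palmitate, 1.30%, 1.35% and 1.59% in RM mock, and 2.10%, 4.26% and 4.58% in RM palmitate. WT mock lay below, and RM palmitate above, every library of the other 2 groups, whose ranges overlapped. The means were 0.533% ± 0.209, 1.57% ± 0.37, 1.42% ± 0.156 and 3.65% ± 1.35 (SD, n = 3). In raw terms RM palmitate held 73381, 93955 and 123393 snRNA counts and RM mock 92953, 95158 and 61110, in libraries whose totals were 3490435, 2204502 and 2696431 against 7122087, 7046318 and 3830243. The part of library depth in this share was not tested.

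Dataset A showed no such order. The share was 0.794%, 0.857% and 0.895% in WT mock, 1.28%, 1.06% and 0.778% in WT palmitate, 0.973%, 1.06% and 1.15% in RM mock, and 0.996%, 5.75% and 1.37% in RM palmitate. The single high value is the shallow replicate 2. Without it the mean of RM palmitate was 1.18% in place of 2.71% ± 2.65 (SD, n = 3). U2 made up 83.03% of the snRNA counts of that library and 23.55% to 36.21% of those of the other 11. Its most counted snRNAs were U2 features on chromosome 1 and Gm23444 on chromosome 11, led by ENSMUSG00000075752 with 2072 counts, while Rnu12 had 164.

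**Figure D2:**
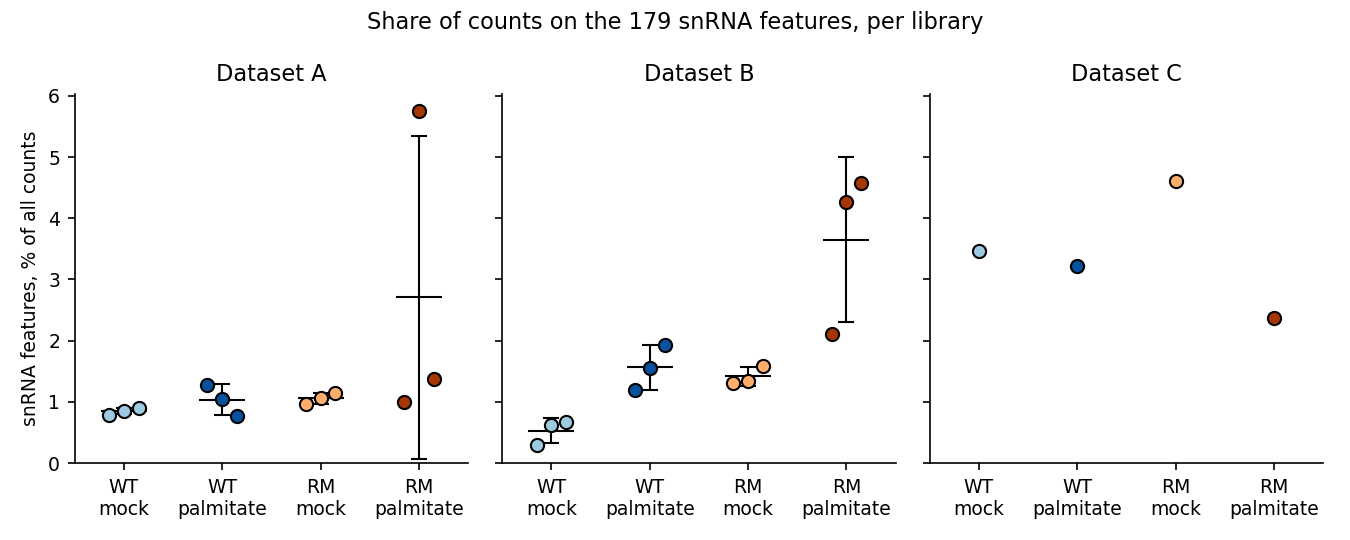
Share of all counts on the 179 snRNA features for each library (points) of the 4 groups in datasets A, B and C, with the mean and SD over 3 libraries (bars) in A and B. In B the 3 WT mock libraries lie at 0.294% to 0.677% and the 3 RM palmitate libraries at 2.10% to 4.58%, and in A the shallow RM palmitate replicate 2 stands at 5.75%.

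Levels of families were set side by side per length, as summed CPM per kilobase. In WT mock of dataset B, U2 stood highest at 10800 ± 4723 and U5 next at 9709 ± 4069, followed by U1 at 6338 ± 3043 (SD, n = 3). These neighbours did not differ beyond their spread. U6 at 1495 ± 477, U12 at 1481 ± 610 and the 141-base pair at 971.8 ± 341 formed a lower tier whose members also overlapped, and U11 (329.5 ± 162) and U7 (216.6 ± 112) were lowest. In WT mock of dataset A the order began with U2 at 15510 ± 3373 and U12 at 14040 ± 1751, then U6 at 9803 ± 2072 and U5 at 9543 ± 2240, and ended again with U11 at 341.4 ± 78.2 and U7 at 67.1 ± 11.6. U12 thus stood next to U2 in A and below U2, U5, U1 and U6 in B. The datasets were scaled separately, and this order was not tested.

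With palmitate and WT PKR in dataset B, many U6 and U2 features were higher, along with some of U5 and 1 of U1. Of 179 tested, 93 rose and 0 fell by edgeR's quasi-likelihood test (adjusted p under 0.05), against 9.43% of all 12466 features tested that rose and 6.12% that fell. The median log2 fold change was 1.77 over the members and -0.05 over all features, and 178 of 179 members were above 0. By family, 79 of 103 U6, 10 of 16 U2, 3 of 8 U5 and 1 of 33 U1 features rose, and none of the U11, U12, U7, 141-base or unassigned features passed.

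U2, the branch-point snRNA, had summed levels of 1029, 2454 and 2695 CPM in WT mock and 5313, 7056 and 9293 in WT palmitate. The groups did not overlap, and the sum rose 3.51-fold (log2 1.81 ± 0.42, the second value being the SE, adjusted p = 0.00924). Among its alternatives the adjusted p ran from 9.38e-05 to 0.0552, which was the value with no filter on low counts. U5, summed largely from features placed by length, went from 589.9, 1311 and 1478 CPM to 3023, 3019 and 5017, with no overlap (log2 1.71 ± 0.43, adjusted p = 0.0179). That call ended without WT palmitate replicate 3 (adjusted p = 0.0664) and with no filter (0.0692), and the only U5 feature with a sequence, Gm23102, gave a log2 difference of 0.73 (adjusted p = 0.55).

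U6 was the family with the most calls. The sum of its 103 features was 103.6, 173 and 203.2 CPM in WT mock and 427.7, 630.2 and 832.4 in WT palmitate, again with no overlap, a 3.94-fold rise (log2 1.98 ± 0.44, adjusted p = 0.0158) that ended without WT palmitate replicate 3 (adjusted p = 0.052). ENSMUSG00000065156 (chr 17, 84790769 to 84790875, mm9), the U6 feature with the smallest p, stood at 1.24, 1.52 and 1.51 CPM in WT mock and at 7.20, 6.77 and 9.52 in WT palmitate. Its log2 fold change was 2.46 ± 0.34 (adjusted p = 0.000317, 3.05e-08 to 0.00301 over 11 alternatives, each of which kept the call). Of the 17 identical copies that include Gm25127, 15 passed, with log2 fold changes of 1.63 to 2.36 and adjusted p of 0.00278 to 0.0784, although the sequence is the same in all 17. The median copy had 10, 16 and 15 counts in WT mock and 34, 33 and 65 in WT palmitate, so the depth behind a single copy is small.

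U1, which finds the 5′ splice site, passed in only Gm24405 of its 33 features (log2 1.71, adjusted p = 0.0393). The U1 sum was 474.4, 1420 and 1222 CPM in WT mock and 1535, 2575 and 2203 in WT palmitate, with no overlap, and its log2 difference of 1.02 ± 0.51 did not pass (adjusted p = 0.208). The sums of the minor spliceosomal U12 and U11 did not pass either, at 0.998 ± 0.531 (adjusted p = 0.241) and 0.98 ± 0.50 (adjusted p = 0.224). Rnu7, the only U7 feature and the only member below 0, stood at 7.99, 21.3 and 11.2 CPM in WT mock and 9.92, 9.64 and 10.2 in WT palmitate (log2 -0.44 ± 0.37, adjusted p = 0.454), but Rnu7 lies inside Grcc10 on the same strand and reads of the host cannot be told apart from its own. The count of 93 members became 42 without WT mock replicate 1, 50 without WT mock replicate 2, 56 without WT palmitate replicate 2 and 31 without WT palmitate replicate 3, and none fell in any of these fits. The share of all features that rose went from 9.43% to 7.51%, 5.76%, 6.65% and 5.24% in the same fits.

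**Figure D3:**
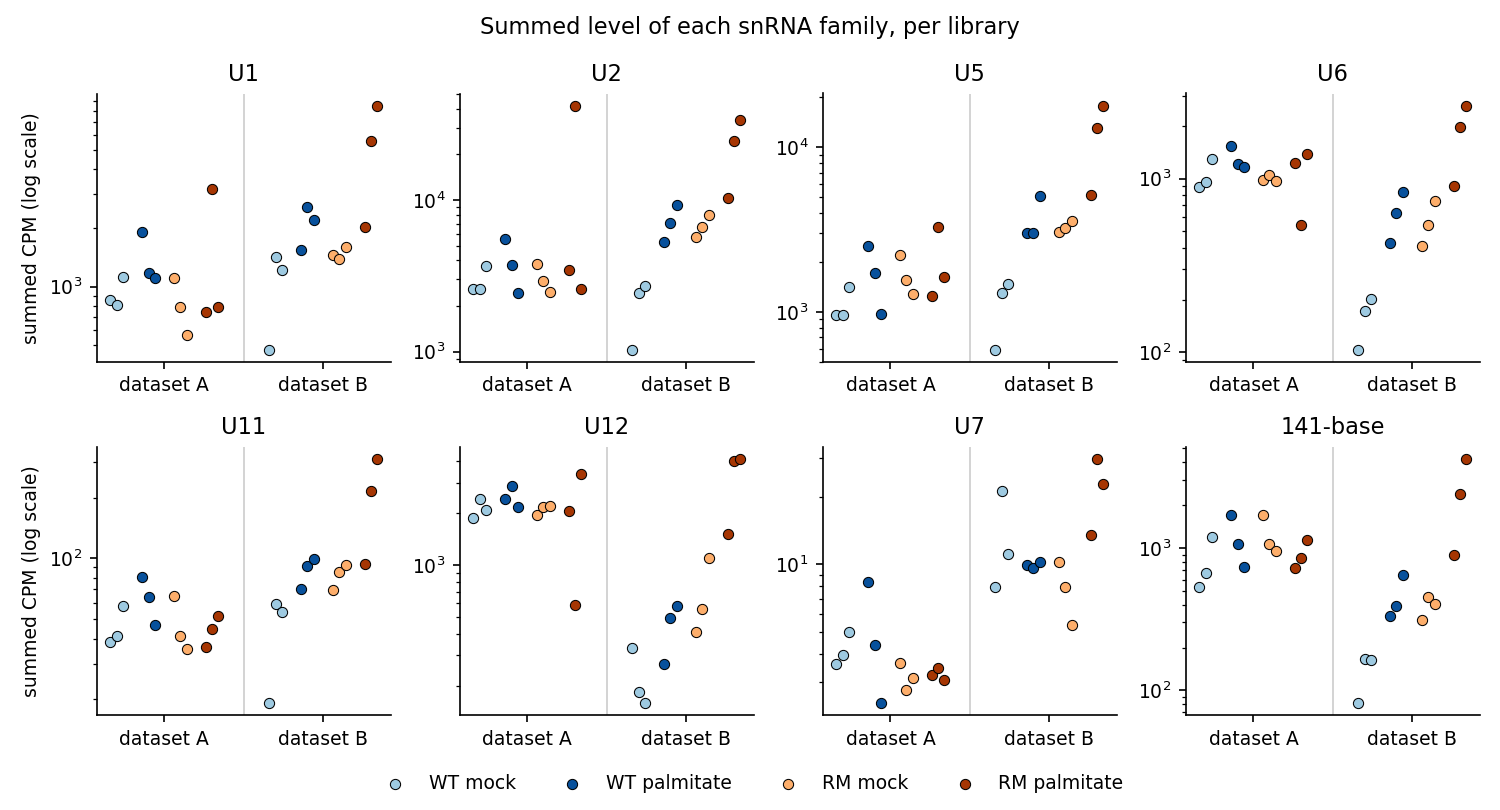
Summed CPM (log axis, 1 panel per snRNA family) in every library of datasets A (left) and B (right), with 1 point per library and 3 per group. In B the U2 sum lies at 1029 to 2695 CPM in WT mock and at 10400 to 33670 in RM palmitate, and in A the shallow RM palmitate replicate 2 stands at 41970.

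Palmitate with RM PKR was also accompanied by higher snRNA levels in dataset B. Here 84 members rose and 0 fell, against 5.08% of all features that rose and 2.45% that fell, and all 179 had a log2 fold change above 0, between 0.70 and 3.23, with a median of 1.75 against -0.01 over all features. These were 70 U6, 4 U2, 3 U5 and 2 U12 features, the U11 feature Gm22472, the unassigned Gm25541 and Gm24840 and the 141-base pair. No U1 feature passed, although all 33 lay between 1.14 and 2.35. Of the 93 features called with WT, 64 were among the 84 called with RM, which is 68.8% of the former and 76.2% of the latter. How many of all features were called in both comparisons is not given here, so this overlap has no background to be set against. The members also include copies of the same sequence, which are not separate cases.

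The summed levels in RM mock and RM palmitate were, in replicates 1 to 3, 5672, 6595 and 8018 against 10400, 24520 and 33670 CPM for U2. The U12 values were 408.1, 553.3 and 1098 against 1507, 3996 and 4129, and those of the 141-base pair were 310.4, 454.1 and 402.8 against 894.9, 2377 and 4221. In each of these families RM palmitate lay above RM mock in all libraries, and replicate 1 of RM palmitate was much the lowest of its group. By edgeR's quasi-likelihood test the sums rose 6.42-fold for the 141-base pair (adjusted p = 0.0303), 4.68-fold for U12 (0.0467), 3.68-fold for U5 (0.026), 3.38-fold for U2 (0.025) and 3.26-fold for U6 (0.0483), while U1 at 3.62-fold (adjusted p = 0.0612), U7 at 2.62-fold (0.0604) and U11 at 2.49-fold (0.14) did not pass.

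These calls rested on few libraries. All 5 ended without RM mock replicate 1 (adjusted p = 0.0946 to 0.135), RM mock replicate 2 (0.0974 to 0.144), RM palmitate replicate 2 (0.0841 to 0.133) or RM palmitate replicate 3 (0.0983 to 0.194), and those of U2, U5, U6 and the 141-base pair also without RM mock replicate 3 (0.056 to 0.0768). With no filter on low counts U12, U2, U5 and U6 did not pass (0.0621 to 0.0891). With RM palmitate replicates 2 and 3 both left out, the log2 differences of the 5 sums, which lay between 1.705 and 2.682 with all libraries, lay between 0.62 and 1.20 (adjusted p = 0.522 to 0.798) with 1 library assumed to vary like the others. The count of 84 members was 5 without RM mock replicate 1, 6 without RM mock replicate 2 and 51 without RM mock replicate 3. It was 169 without RM palmitate replicate 1, and 7 and 11 without RM palmitate replicate 2 or 3. The share of all features called in either direction moved too, from 7.53% to 1.57%, 1.09% and 3.43% without RM mock replicates 1, 2 and 3. Without RM palmitate replicates 1, 2 and 3 it was 20.96%, 1.58% and 1.74%. With RM palmitate replicates 2 and 3 both left out, the median of the members was 0.63. The 2 U6 features with the smallest p were Gm23296 (5.20, 7.36 and 6.65 CPM in RM mock, 11.5, 21.1 and 29.7 in RM palmitate, log2 1.64 ± 0.29, adjusted p = 0.00614) and Gm24535 (1.86, 2.05 and 2.81 against 5.74, 11.1 and 12.8, log2 2.11 ± 0.38, adjusted p = 0.00626). Both kept their calls with any single library left out and lost them without both (adjusted p = 0.394 and 0.378).

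The largest fold change among the members with palmitate under RM in dataset B was that of Gm25541 (chr 2, 27395325 to 27395450, mm9), an unassigned feature of 126 bases. It had 7.80, 8.73 and 8.7 CPM in RM mock and 22.1, 75.4 and 145.7 in RM palmitate (log2 3.23 ± 0.64, adjusted p = 0.0267). With WT the same feature had 5.51, 6.85 and 5.85 CPM in mock and 7.20, 18.0 and 10.02 in palmitate, and the log2 difference of 0.90 ± 0.69 did not pass (adjusted p = 0.415). Its sequence is shown because it has no named family in the annotation. It reached no more than 54.2% identity to the named snRNAs compared, which held no U4, U4atac or U6atac. Whether it belongs to any of those families was not tested.
Gm25541: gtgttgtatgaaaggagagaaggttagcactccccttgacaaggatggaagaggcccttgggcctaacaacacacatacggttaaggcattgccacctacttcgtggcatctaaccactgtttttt
The call with RM ended without any single library of RM mock (adjusted p = 0.0949, 0.0997 and 0.0668 without replicates 1, 2 and 3) and without RM palmitate replicate 2 (0.0771) or 3 (0.063), and the adjusted p was 0.166 without both. Over the 12 alternatives it ran from 1.06e-08 to 0.166.

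WT and RM differed already in mock cells of dataset B. By edgeR's quasi-likelihood test, 71 of 179 members were lower with WT than with RM and 0 were higher, against 7.88% of all features that were lower and 6.24% that were higher. The median log2 difference, WT minus RM, was -1.62 over the members and 0.02 over all features. The lower features were 62 of U6, 6 of U2 and 3 of U5. This comparison shares its WT mock libraries with the palmitate comparison under WT and its RM mock libraries with that under RM, so the values of these comparisons only stand side by side.

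For U2 the 3 WT mock libraries (1029, 2454 and 2695 CPM) lay below the 3 RM mock libraries (5672, 6595 and 8018), a log2 difference of -1.72 ± 0.42 (adjusted p = 0.013) that ended without RM mock replicate 3 (adjusted p = 0.0568) and with no filter on low counts (0.0681). For U6 they lay at 103.6, 173 and 203.2 against 407.9, 538.9 and 743.1 CPM, a difference of -1.82 ± 0.44 (adjusted p = 0.0235). This ended without WT mock replicate 1 or 2 (adjusted p = 0.0567 and 0.0673) or RM mock replicate 2 or 3 (0.0557 and 0.0756). The U5 difference of -1.54 ± 0.43 (adjusted p = 0.0303) ended without any mock library except WT replicate 3 (adjusted p = 0.0556 and 0.0636 without WT replicates 1 and 2, and 0.0555, 0.0685 and 0.0881 without RM replicates 1, 2 and 3), and also with no filter (0.0992). Over its 12 alternatives, which included a sum of U5 features with a sequence only, 5 kept the call and the adjusted p reached 0.853.

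In U1 the groups overlapped. Its sum of 474.4, 1420 and 1222 CPM with WT stood beside 1458, 1394 and 1599 with RM (log2 -0.51 ± 0.50, adjusted p = 0.544), and its 33 features had a median of -0.46 with 0 calls. U12 at -1.62 ± 0.54 (adjusted p = 0.0812) and the 141-base pair at -1.51 ± 0.54 (adjusted p = 0.102) did not pass. Rnu7 had the highest value of the 179, at 0.73 ± 0.37 (adjusted p = 0.212). ENSMUSG00000065156, at 1.24, 1.52 and 1.51 CPM with WT and 5.20, 6.96 and 9.72 with RM, had the smallest p (log2 -2.30 ± 0.34, adjusted p = 0.000604, 1.79e-07 to 0.00492 over 11 alternatives). The count of 71 became 22 without WT mock replicate 1, 26 without WT mock replicate 2, 29 without RM mock replicate 2 and 16 without RM mock replicate 3. The share of all features called in either direction went from 14.1% to 11.42%, 6.97%, 7.46% and 5.78% in the same fits.

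Under palmitate, too, snRNAs were lower with WT than with RM in dataset B. Here 59 members were lower and 0 were higher, against 4.2% of all features that were lower and 3.62% that were higher, and all 179 log2 differences were negative, from -3.19 to -0.25, with a median of -1.47 against 0.00 over all features. The called features were 48 of U6, 4 of U2, 2 of U5, 2 of U12 (Rnu12 and Gm24525), the unassigned Gm25541 and the 141-base pair. The RM palmitate libraries are shared with the palmitate comparison under RM.

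U12, the branch-point snRNA of the minor spliceosome, had the lowest family median, at -2.82 over its 3 features. Rnu12 (chr 15, 82980074 to 82980224, mm9) had 242.3, 438.4 and 544 CPM in WT palmitate and 1395, 3695 and 3539 in RM palmitate, with no overlap (log2 -2.82 ± 0.56, adjusted p = 0.0242, 2.49e-05 to 0.437 over the alternatives). The call ended without WT palmitate replicate 1 (adjusted p = 0.0939) or 2 (0.0712) and without RM palmitate replicate 2 (0.076) or 3 (0.0989), and without both of the latter the difference was -1.77 (adjusted p = 0.437). Gm24525, a U12 feature on chromosome 5, had 18.1, 40.1 and 27.6 CPM with WT and 83.5, 223.9 and 473.9 with RM (log2 -3.19 ± 0.67, adjusted p = 0.0301). Its call ended without any single library of either group (adjusted p = 0.0724 to 0.124) except RM palmitate replicate 1.

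The other sums that differed were the 141-base pair (-2.46 ± 0.56, adjusted p = 0.0364), U5 (-1.71 ± 0.43, adjusted p = 0.0337) and U2 (-1.66 ± 0.42, adjusted p = 0.0283), and in all of these the 3 WT palmitate libraries lay below the 3 of RM palmitate. For U2 the WT values were 5313, 7056 and 9293 CPM against 10400, 24520 and 33670. Together with U12, these 4 calls ended without WT palmitate replicate 1 (adjusted p = 0.0905 to 0.132), WT palmitate replicate 2 (0.0686 to 0.111), RM palmitate replicate 2 (0.0725 to 0.0955) or RM palmitate replicate 3 (0.0947 to 0.227), and that of the 141-base pair also without WT palmitate replicate 3 (0.059). With no filter on low counts U2 and U5 did not pass (0.108 and 0.102). U6 at -1.54 ± 0.43 (adjusted p = 0.0624), U1 at -1.35 ± 0.51 (adjusted p = 0.135), U11 at -1.24 ± 0.50 (adjusted p = 0.165) and U7 at -1.09 ± 0.40 (adjusted p = 0.117) did not pass. Among single U6 features Gm24535 had the smallest p, with 0.96, 2.34 and 2.17 CPM with WT and 5.74, 11.1 and 12.8 with RM. Its difference of -2.40 ± 0.40 (adjusted p = 0.00347) ended only without RM palmitate replicates 2 and 3 together (adjusted p = 0.251).

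The count of 59 members rested on single libraries as well. Leaving out WT palmitate replicate 1 gave 1 and leaving out replicate 2 gave 2. Without RM palmitate replicates 1, 2 and 3 in turn it was 153, 2 and 3, and it was 0 without the latter pair, when the median of the members was -0.44. DESeq2 on the same 12 libraries called 132, all lower with WT, when 5.85% of all features were lower. The share of all features that were lower moved too, to 0.333% and 0.534% without WT palmitate replicate 1 or 2 and to 10.2% without RM palmitate replicate 1.

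**Figure D4:**
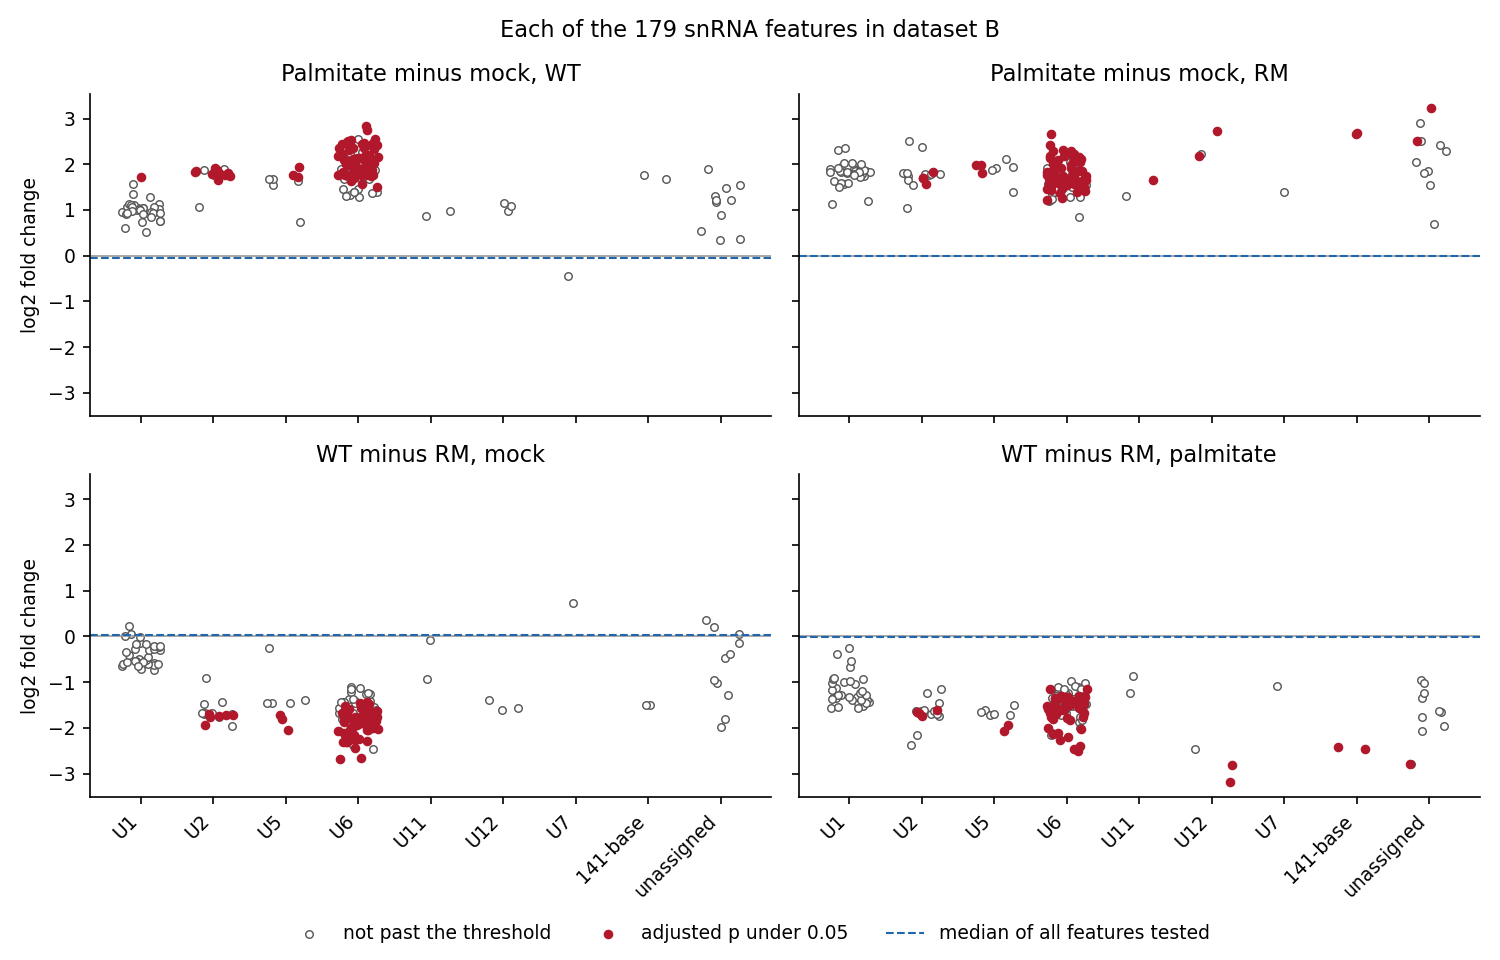
Log2 fold change of each of the 179 snRNA features (1 point each, by family) in the 4 comparisons of dataset B, filled where the adjusted p was under 0.05, with the median of all features tested as a dashed line. The filled points number 93 and 84 above 0 in the palmitate comparisons (upper row) and 71 and 59 below 0 in the WT minus RM comparisons (lower row), and Rnu7 (U7) lies on the other side of 0 from most members on the left.

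Whether palmitate acted differently with WT and RM was tested with the interaction term, palmitate minus mock under WT less the same under RM. In dataset B edgeR's quasi-likelihood test called 0 of 179 members, as of all 12466 features (0% called), with an unadjusted p under 0.05 in 4 members. DESeq2 called 2 members and 2.81% of all features. The median over the members was 0.03 against 0.02 over all features. So the calls with 1 form of PKR and not the other, given above, are not shown to differ between the forms. The member with the smallest p was Rnu7, with 10.3, 7.91 and 5.37 CPM in RM mock and 13.5, 29.4 and 22.7 in RM palmitate beside the WT values above. RM palmitate thus lay above RM mock in all 3 libraries, while with WT the groups overlapped. The interaction was -1.82 ± 0.54 (adjusted p = 0.148, 0.0289 to 0.533 over the alternatives), the lowest of these p from DESeq2, and 0.0337 without RM palmitate replicate 1. Leaving out that library gave 7 calls among the 179 members, when 7.09% of all features were called, so this is no result about the members. Gm24840 was among the 7 (-2.69, adjusted p = 0.00883, against -2.16 and 0.255 with all libraries).

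In dataset A, palmitate brought no call among the 173 members that passed the filter on low counts. With WT the count was 0 by edgeR's quasi-likelihood test, against 0.335% of all 11328 features, with 17 members at an unadjusted p under 0.05 and 0 by DESeq2. The median was 0.41 against -0.03 over all features, and 163 of the 173 lay above 0. With RM it was also 0, against 0.477% of all features, with 30 members at an unadjusted p under 0.05 and 0 by DESeq2, a median of 0.35 against -0.04, and 142 above 0. The U6 sum was 888.6, 956.2 and 1302 CPM in WT mock, 1542, 1205 and 1164 in WT palmitate, 976.8, 1045 and 964 in RM mock, and 1228, 538 and 1392 in RM palmitate, with groups that overlapped (log2 0.31 ± 0.40, adjusted p = 0.821, under WT and 0.09 ± 0.40, adjusted p = 0.954, under RM). U2 with RM went from 3769, 2908 and 2476 to 3455, 41970 and 2600 CPM, a log2 value of 2.39 ± 0.81 (adjusted p = 0.213) carried by the shallow replicate 2, since the other 2 libraries lay within the range of RM mock. The interaction gave 0 calls in dataset A (0% of all features called), with 2 members at an unadjusted p under 0.05 and 0 by DESeq2.

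Rnu12 was among the most counted snRNAs of dataset A. It lay between 1861 and 3374 CPM in 11 libraries and at 565.4 in RM palmitate replicate 2, and no comparison of A passed for it (adjusted p = 0.804 to 0.995 with palmitate, in mock and under palmitate). In dataset B its level ran from 142.1 to 3695.

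Few members were called between WT and RM in dataset A, at shares near or below those of all features. All of them were higher with WT. Under palmitate 8 members were higher with WT and 0 were lower, against 2.49% of all features that were higher and 0.936% that were lower. These were the U1 features Gm25704, Gm24046, ENSMUSG00000064594, ENSMUSG00000065020, Gm25682 and Gm25189, the U2 feature Gm25106 and the unassigned Gm23240. As a share of the 173 members tested, 4.62% were called, near the background of 3.43% in either direction. In mock cells 1 member, Gm25704, was higher and 0 were lower, against 3.03% of all features that were higher and 0.715% that were lower. That is 0.578% of the members, below the 3.74% of all features called in either direction.

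Gm25704 (chr 2, 132834223 to 132834390, mm9), the U1 feature shown above that lacks the splice-site stretch, had 12.6, 13.5 and 13.03 CPM in WT palmitate and 3.92, 3.45 and 2.76 in RM palmitate, the middle value from 1 count. The groups did not overlap, and the difference of 1.96 ± 0.33 (adjusted p = 0.00129) kept its call in all 11 alternatives, 1.16e-08 to 0.0256. In mock the values were 9.11, 6.94 and 12.4 with WT and 6.08, 4.63 and 2.22 with RM, again without overlap (1.11 ± 0.30, adjusted p = 0.0427). That call ended with DESeq2 (adjusted p = 0.102), with scaling by total counts (0.133) and without WT mock replicate 1, 2 or 3 (0.134, 0.0523 and 0.186) or RM mock replicate 2 or 3 (0.117 and 0.169), in a range of 0.00404 to 0.186. In dataset B the same feature did not pass (-0.29 ± 0.62 in mock, adjusted p = 0.801, and -0.66 ± 0.63 under palmitate, adjusted p = 0.575).

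Gm24046 had 4.09, 5.22 and 6.86 CPM in WT palmitate and 0.70, 3.45 and 1.24 in RM palmitate (2.30 ± 0.42, adjusted p = 0.00324), and lost its call without RM palmitate replicate 1 (0.0571). ENSMUSG00000064594 lies inside Cyp7b1 on the same strand, and had 12.9, 9.14 and 13.03 against 4.06, 3.45 and 3.17 CPM (1.68 ± 0.33, adjusted p = 0.00581, and 0.0587 without RM palmitate replicate 3). Neither pair of groups overlapped. ENSMUSG00000065020 (1.63 ± 0.35, adjusted p = 0.0117), Gm25682 (1.73 ± 0.37, 0.0122), Gm25189 (1.03 ± 0.27, 0.0354), Gm25106 (1.14 ± 0.30, 0.0357) and Gm23240 (1.27 ± 0.34, 0.0413) all lost their calls without RM palmitate replicate 1 and with scaling by total counts (adjusted p = 0.0535 to 0.277). Gm25682, Gm25189, Gm25106 and Gm23240 also lost theirs with DESeq2 (0.111 to 0.192), and Gm25106 with the replicate block (0.052). Gm25106 lies inside Ikzf3 on the same strand. The count of 8 was 2 without RM palmitate replicate 1, 10 without replicate 2 and 4, of which 1 was lower, without replicate 3. In the same fits 1.725%, 5.26% and 2.03% of all features were called. The 8 features were all at 1 to 6 counts in RM palmitate replicate 2, so their values there carry little precision.

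Among the U1 features with a sequence and enough counts in dataset A, 3 of the 6 without ACTTACCTG and 1 of the 6 with it were called under palmitate, with medians of 1.45 and 0.60. In dataset B the corresponding medians under palmitate were -1.31 over 6 and -1.18 over 7 features, with 0 calls in each. These few features are described only, with no test between them.

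**Figure D5:**
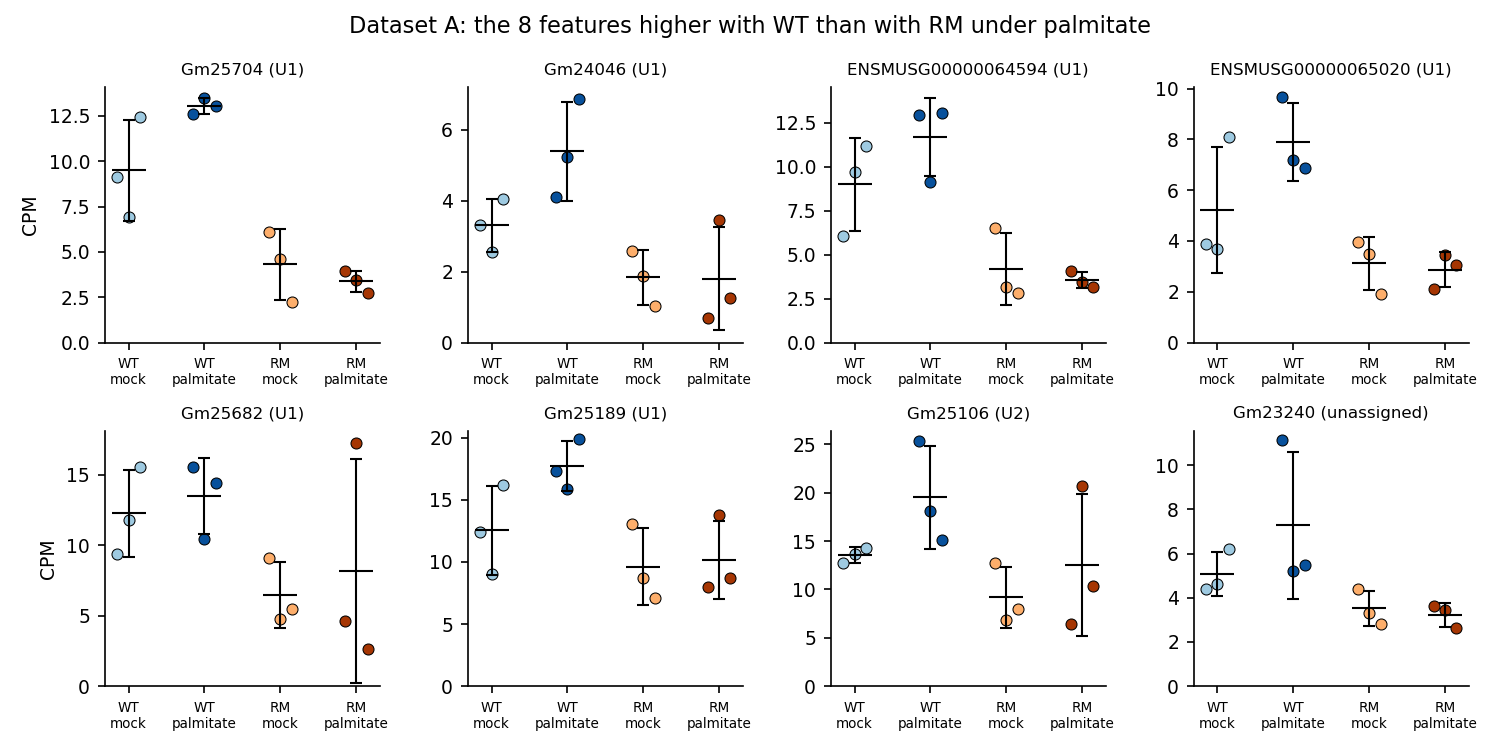
CPM of the 8 features that were higher with WT than with RM under palmitate in dataset A, with 1 point per library and the mean and SD over 3 libraries (bars) for each group. Gm25704 stands at 12.6 to 13.5 CPM in WT palmitate and at 2.76 to 3.92 in RM palmitate, and Gm25682 and Gm25106 overlap through the shallow RM palmitate replicate 2.

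Dataset C had 1 library per group, so its differences have no replicate check and no test. Its tables mark columns t and c, read here as treated and control, and the genotype comes from the file's sample labels. The snRNAs took 3.46% of counts in WT mock (95% Wilson interval 3.445% to 3.471%), 3.23% in WT palmitate (3.215% to 3.24%), 4.60% in RM mock (4.589% to 4.615%) and 2.37% in RM palmitate (2.358% to 2.375%), intervals that cover counting error only. RM palmitate thus had the lowest share in C and the highest in B. With WT the members' median log2 ratio of palmitate over mock was 0.15 against 0.27 over all features, with 123 above 0 and 56 below. With RM it was -0.79 against 0.18, with 2 above and 177 below. U12 alone among the family sums was higher in RM palmitate than in RM mock, at 2943 against 1986 CPM, while U2 had 13970 against 28870, U1 2429 against 6146 and U6 855.8 against 1298. That higher U12 sum came from Rnu12 (log2 ratio 0.732), while the other U12 features, Gm24525 and Gm23502, stood at -1.815 and -1.245. The strand is given in C, and 170 of 179 members had all their counts on the annotated strand, the lowest share being 99.18% in Gm22352.

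The authors' deposited tables of their own palmitate comparisons give a score that is read here as 10 times the negative log10 of a false discovery rate, so that 13.01 stands for 0.05. Past it, the authors' deposited table for WT in dataset B had 155 members, all higher, against 6.51% of all features, and that for RM in B had 158, all higher, against 1.92%. In dataset A the authors' deposited tables had 4 members higher with WT (0.599% of all features past the score) and 1 lower with RM (0.255%). These tables rest on the same libraries.

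Few genes of the proteins that build and carry snRNAs were called, and in both directions. Of 97 genes for snRNP proteins, the SMN assembly complex, snRNA transcription and Integrator, which cuts the 3′ end of nascent snRNAs, 93 were tested in dataset B. With palmitate under WT, 4 rose and 4 fell, with a median of -0.10 against -0.05 over all features, and under RM 3 rose and 4 fell, with a median of -0.15 against -0.01. That is 8.6% of the list against 15.5% of all features under WT, and 7.53% against 7.53% under RM. Snrnp70, the U1 protein, went from 68.6 ± 12.9 to 105.2 ± 4.37 CPM with WT (SD, n = 3, log2 0.62 ± 0.14, adjusted p = 0.00879), and Snapc4, a subunit of the snRNA promoter-binding complex, rose with WT (0.74 ± 0.18, adjusted p = 0.0121) and with RM (0.65 ± 0.19, adjusted p = 0.0433). Lsm3, a ring protein of U6, Snrpe, a core Sm protein, and Sf3b6 of the U2 particle fell with WT by 0.63, 0.70 and 0.64 on the log2 scale (adjusted p = 0.0143, 0.0168 and 0.0204). Ints9, an Integrator subunit, fell with RM by 0.79 (adjusted p = 0.00626).

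Between WT and RM, 4 of the 93 were higher and 2 lower with WT in mock, and 3 were higher and 4 lower under palmitate, which is 6.45% against 14.1% of all features and 7.53% against 7.81%. These shares are no higher than the background. By edgeR's quasi-likelihood test, the higher ones under palmitate were the Integrator subunits Ints5 (0.94 ± 0.17, adjusted p = 0.00765) and Ints9 (0.64 ± 0.14, adjusted p = 0.0193), and Tut1 of U6 maturation (0.54 ± 0.13, adjusted p = 0.021). The lower ones under palmitate included Snrpg (-0.99 ± 0.22, adjusted p = 0.0178) and the minor spliceosome proteins Snrnp25 (-1.34 ± 0.33, adjusted p = 0.0264) and Zcrb1 (-0.90 ± 0.25, adjusted p = 0.0367). In dataset A 86 were tested, and Ints8 was higher with WT in mock (0.97 ± 0.21, adjusted p = 0.00972) and under palmitate (1.25 ± 0.23, adjusted p = 0.0034), as was Prpf6 of the U5 particle under palmitate (1.07 ± 0.27, adjusted p = 0.0304), when 3.74% and 3.43% of all features were called. With palmitate in dataset A the list had 0 calls with WT and with RM by edgeR's quasi-likelihood test (4 and 5 genes at an unadjusted p under 0.05, and 0 and 1 by DESeq2). The counts in dataset B rested on single libraries. The 8 calls with WT became 2 without WT mock replicate 2, when 8.54% of all features were called. The 7 with RM became 23 without RM palmitate replicate 1, when 20.96% of all features were called. That count became 1 without RM palmitate replicate 2 or 3, when 1.58% and 1.74% of all features were called.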

How the data were processed

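RNA bound to PKR was measured in 28 libraries. The deposited tables give raw counts per feature on mm9. CASAVA 1.7.0 and 1.8.2 and Novoalign are named in the submitters' processing notes, while the sources used here name no counting tool, use of strand in datasets A and B or placement of reads with several matches. The authors' deposited tables also hold a log2 ratio and a score, per the file headers. Another 52 columns of per-sample values were not used.

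Names and sequences came from GENCODE M21 (GRCm38), which held 25773 of the 29777 Ensembl identifiers. No coordinate was taken from it. The 12 libraries of each dataset were fitted with 1 mean per group by edgeR 4.0.16 (R 4.3.3) with TMM scaling, its default filter on low counts and the robust two-sided quasi-likelihood test, with Benjamini-Hochberg adjustment over all features tested (11328 in A, 12466 in B) and a threshold of 0.05. CPM are counts scaled to a common library total, which was multiplied by its TMM factor in A and B and not in C. SE is the log2 fold change divided by the square root of F. Dataset C has 1 library per group, and its log2 ratios of CPM used a pseudocount of 1. The procedure was tested on simulated counts with the same spread for every feature and no library that stood apart. That run therefore cannot show how the calls fare with libraries such as RM palmitate replicates 2 and 3 of dataset B. Alternatives were DESeq2 1.42.0, its size factors, total counts, no filter, the replicate number as a block, each library left out and, chosen after seeing the data, leaving out RM palmitate replicates 2 and 3 of dataset B together.

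A member needed at least 80% identity over 80% of the shorter sequence to join a family. Placing members without a sequence by length was added after seeing the data. The members and gene lists were chosen with earlier results of these data known. Named members are the most abundant, the most abundant of each family, those with the smallest p or extreme called changes per comparison, and those in small counts. Named protein genes are the called ones with the smallest p in each direction. A marker gene and a U6 sequence are not reported here.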

Additional observations from a re-analysis of the deposited data

Results flagged for a closer look

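For 4 snRNA features every library of a group lay on one side in dataset A and on the opposite side in dataset B, with values given as log2 ratios of mean CPM. Gm24840, palmitate against mock with RM, stood at -1.171 in A and at 2.627 in B. RM palmitate replicate 2 of A, the shallow library, had 0 counts of it, and without that library the value in A was -0.586. In mock cells, WT against RM, ENSMUSG00000070220 stood at 0.472 in A and -1.636 in B, and Gm25583 at 0.411 and -1.898. Gm25583 is 1 of the 17 U6 features with the same sequence. By edgeR the log2 differences of the 17 in mock ran from -0.247 to 0.402 in A, on both sides of 0, and from -2.105 to -1.105 in B. The value of this 1 copy in A thus does not stand for its sequence. Under palmitate, WT against RM, Gm25039 stood at 0.694 in A and -1.614 in B, with 1 count in the same shallow library and 0.6 in A without it. The difference between the datasets was not tested for any of them. In these comparisons of A and B, 18.63% to 36.87% of all features tested had groups that did not overlap. How many of all features lay on opposite sides in A and B is not given here, so the 4 have no background to be set against. Groups held 3 libraries, so single libraries were not tested for standing apart.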

How the results depend on the processing

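No called snRNA value changed direction under any alternative run. Of the alternatives for family sums that had passed, 110 kept the call and 77 lost it, and for single members 1057 kept their side of the threshold, 449 lost the call and 7 gained it. With no filter on low counts dataset A gave 4 calls with palmitate under WT, 11 under RM, 4 for WT against RM in mock, 20 under palmitate and 3 for the interaction, beside 1.01%, 1.79%, 3.71%, 4.31% and 0.452% of all 19479 features. DESeq2 gave 0 and 4 calls for WT against RM in mock and under palmitate in A, and in B 161 with palmitate under RM, 111 and 132 for WT against RM in mock and under palmitate, and 2 for the interaction, beside 2.67% and 3.1% of all features in A and 8.94%, 12.9%, 8.59% and 2.81% in B. Scaling by total counts gave 0 and 4 calls for WT against RM in mock and under palmitate in A, and under it the median over all features tested shifted most for WT against RM under palmitate in A, to -0.39 on the log2 scale. Of all features called there, 134 of 521 were then higher, against 282 of 388 with TMM scaling, and in B 433 of 2431 against 633 of 939 with palmitate under RM and 1735 of 2109 against 451 of 974 for WT against RM under palmitate.

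With the replicate number as a block the counts were 2 for WT against RM in mock in A, and in B 145 with palmitate under RM, 128 for WT against RM in mock and 133 under palmitate, beside 3.955% of all features in A and 10.08%, 16.3% and 10.03% in B. Same-numbered libraries had correlations of -0.2236 to 0.2664. With 3 libraries per group these cannot tell whether same-numbered libraries share a culture or day. Without RM palmitate replicates 2 and 3 of B, palmitate under RM and WT against RM under palmitate each gave 0 calls. Leaving out 1 library gave 0 to 2 calls for WT against RM in mock and 2 to 10 under palmitate in A. In B it gave 31 to 95 and 5 to 169 with palmitate under WT and RM, 16 to 70 and 1 to 153 for WT against RM in mock and under palmitate, and 0 to 7 for the interaction. The share of counts without the 5 most abundant features was 1.125% in WT mock, 1.312% in WT palmitate and 1.23% in RM mock of A. The cause was not tested. Depth limits single U6 copies and RM palmitate replicate 2 of A, where 1 count is 3.448 CPM.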
